A study of Mus musculus with 100 samples.

Results

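Binding and acetylation were examined at 10 mouse genes that set whether a macrophage survives or dies, namely the anti-apoptotic Bcl2, Bcl2l1, Bcl2a1b and Mcl1, the pore-forming effectors Bax and Bak1, the BH3-only killers Bcl2l11 and Pmaip1, and the caspase inhibitors Birc3 and Cflar. Every region that the authors' annotation assigned to 1 of these symbols was taken, which gave 1119 of 610301 regions over 15 tables. Neighbouring regions from different tables were joined into 169 sites (centres at most 500 bp apart), of which 57 held regions in at least 8 tables and 29 lay at a promoter (within 2 kb of a start).

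All libraries were chromatin immunoprecipitation followed by sequencing (ChIP-seq) of mouse bone marrow-derived macrophages (BMDMs) or of osteoclast precursors and osteoclasts, with 2 libraries per group, from C57BL/6 animals of 8 to 12 weeks by the study's methods. Wild-type (WT) BMDMs received vehicle (Veh) or 100 ng/ml Kdo2 lipid A (KLA), a TLR4 agonist, for 6 h, and were profiled for the NFκB subunit p65, the acetyltransferase p300, the AP-1 factor Fosl2, the lineage factor PU.1, the corepressor NCoR, the deacetylase HDAC3, the coactivator PGC1β and the kinase ERK1. By their labels the p300 Veh libraries are 0 h of KLA, and the p65, HDAC3, NCoR, Fosl2 and PU.1 ones 6 h of Veh. Further WT cells received KLA with DMSO, with the HDAC3 inhibitor RGFP966, or with an inhibitor of ERK (ERKi). Osteoclast precursors were taken at day 0, and cells differentiated towards osteoclasts at day 4 of RANKL treatment. Histone H3 lysine 27 acetylation (H3K27ac) was measured in the RGFP966 experiment, in NCoR flox/flox cells (called WT there) against NCoR flox/flox LysMCre cells (NKO), and in Pgc1b flox/flox cells without or with LysMCre, each with Veh or KLA. LysMCre acts in myeloid cells and its recombination need not be complete, and the 2 libraries of a group are not stated to come from separate animals, so p-values describe the spread between these libraries. None of the tables measures RNA or the deleted exons, so the genotype labels were not checked against the targeted genes.

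Cell death through mitochondria is decided by the BCL2 family. BH3-only proteins such as BIM (encoded by Bcl2l11) and NOXA (Pmaip1) are set free or made under stress, they occupy the groove of the anti-apoptotic proteins BCL-2, BCL-XL (Bcl2l1), A1 (Bcl2a1b) and MCL-1, and BAX and BAK then open the outer membrane and release cytochrome c. A second route runs from death receptors through caspase 8, which is held in check by cFLIP (Cflar) and by the ubiquitin ligase cIAP2 (Birc3). In macrophages, TLR4 ligands start both death and survival signalling, and Birc3, Bcl2a1b, Cflar and Bcl2l1 are known as targets of NFκB.

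Libraries held 4.3 to 21.5 M tags, of which 2.79% to 52.8% lay in the listed regions, and the unit used throughout, unless stated otherwise, is tags per 10 M of the library's total. Promoter H3K27ac was present at all 6 macrophage markers in the RGFP966 and Pgc1b experiments (summed level 2070 to 3100 and 1350 to 2780), and at 3 of 6 in the WT and NKO experiment (171 to 295), where Adgre1, Csf1r and Lyz2 had no promoter region. No T cell, B cell or fibroblast marker had a promoter region in these tables, and S100a8 was the single one of 3 neutrophil markers, in the RGFP966 and Pgc1b tables. In the p300 table of days 0 and 4 of RANKL treatment 4 of 5 osteoclast markers were listed (summed level 132 to 135 at day 0 and 650 to 723 at day 4). Fewer cells of a type and less signal per cell cannot be told apart in bulk chromatin.

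Some member regions gained several factors with KLA, and their reference sequences (RefSeq GRCm38.p6, the mm10 build used by the authors, plus strand) show what lies there. Capitals mark matches on either strand to the NFκB consensus (κB), to the AP-1 consensus TGANTCA or to the PU.1 core GAGGAAGT, none of which overlap in these sequences. The first 2 regions, 7.93 kb upstream of an internal Cflar start at chr1:58722524-58722726 (in an intron) and 18.4 kb upstream of Bcl2a1b at chr9:89180744-89180998 (intergenic), each held 1 κB match.
Cflar intronic region: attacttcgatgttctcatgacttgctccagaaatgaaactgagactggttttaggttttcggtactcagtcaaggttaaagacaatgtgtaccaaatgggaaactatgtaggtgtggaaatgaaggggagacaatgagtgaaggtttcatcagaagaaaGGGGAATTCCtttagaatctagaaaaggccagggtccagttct
Bcl2a1b upstream region: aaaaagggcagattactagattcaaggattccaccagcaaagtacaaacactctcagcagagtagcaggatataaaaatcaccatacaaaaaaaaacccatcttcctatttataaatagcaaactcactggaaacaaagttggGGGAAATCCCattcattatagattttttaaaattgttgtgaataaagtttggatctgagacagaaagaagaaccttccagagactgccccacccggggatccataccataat
The region 2.71 kb upstream of Mcl1 at chr3:95655910-95656113 (intergenic) held 1 AP-1 match.
Mcl1 upstream region: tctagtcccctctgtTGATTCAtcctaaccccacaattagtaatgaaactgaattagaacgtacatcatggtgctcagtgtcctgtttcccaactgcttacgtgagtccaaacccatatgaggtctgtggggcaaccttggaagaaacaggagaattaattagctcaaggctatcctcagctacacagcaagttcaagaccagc
The region 104 kb downstream of the Bcl2l11 start at chr2:128231020-128231226 (intergenic) held none of the 3 motifs.
Bcl2l11 downstream region: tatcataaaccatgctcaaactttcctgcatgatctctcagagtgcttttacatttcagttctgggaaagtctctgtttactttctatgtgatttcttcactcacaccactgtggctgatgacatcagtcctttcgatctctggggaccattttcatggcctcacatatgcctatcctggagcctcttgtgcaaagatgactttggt
The Bcl2a1b promoter at chr9:89199023-89199322, printed because it is the only member promoter with 2 of the motifs, held an AP-1 match from base 87 and a PU.1 match from base 103.
Bcl2a1b promoter: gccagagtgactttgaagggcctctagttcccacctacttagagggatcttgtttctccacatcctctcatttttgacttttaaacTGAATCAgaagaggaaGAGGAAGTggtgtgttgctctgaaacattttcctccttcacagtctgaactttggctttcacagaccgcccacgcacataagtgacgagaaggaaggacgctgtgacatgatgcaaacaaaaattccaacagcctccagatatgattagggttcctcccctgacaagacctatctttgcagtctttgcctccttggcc

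Repeat masking differed between the gained regions. All 203 of 203 bases of the Birc3 region 23.1 kb upstream and 147 of 255 bases of the Bcl2a1b upstream region are soft-masked as repeats in RefSeq, against 0 of 203 bases of the Cflar region, and soft-masked bases made up 15.4% of all p65 regions. Bcl2a1b also has near-identical copies (Bcl2a1a, Bcl2a1c and Bcl2a1d), so the assignment of its reads is uncertain. In the central 200 bp of p65 regions the κB match occurred in 9 of 105 member regions (8.57%) and in 7.61% of all 52624, the AP-1 match in 20 members (19%) and 21.7% of all, and the PU.1 match in 15 members (14.3%) and 9.57% of all. Of the 9 member regions with a κB match, 8 were called higher with KLA (median log2 fold change 3.43), and of the 96 without a match 72 were called higher (median 1.86). Of all p65 regions tested 57% were called higher, and this share was not split by the motif. Among RefSeq promoters of 300 bp, κB was found in 4.51% of 32851, AP-1 in 7.81% and PU.1 in 3.2%, and among the 12 member promoters in 1 (Bcl2l1), 1 (Bcl2a1b) and 2 (Bcl2a1b and Bak1).

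To ask how TLR4 signalling changed factor binding at these genes, KLA was compared with Veh, with calls at an adjusted p under 0.05 and more than a 2-fold change. For p65, 80 of 105 member regions were higher and 1 lower, against 57% and 5.43% of all regions tested, with a median log2 fold change of 1.95 for members and 1.46 for all. For p300, 69 of 134 were higher and 9 lower (all regions, 42.1% and 12.9%), with medians of 1.13 and 0.65. Scaled by trimmed mean of M-values (TMM), which sets the median of all regions near 0, p65 gave 39 higher and 11 lower (27.6% and 21.3% of all) and p300 gave 55 and 19 (32.7% and 23.9%). With TMM the median of all regions was 0.24 for p65 and 0.14 for p300. The share of tags in listed regions moved with these results, being 12.7% and 14.4% with Veh against 34.1% and 37.1% with KLA for p65, and 22% and 23.7% against 35.3% and 35.5% for p300 (lower and higher library of each group), and its part in them was not tested. Without KLA replicate 2, 51 p65 member regions were called in place of 81.

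The deacetylase and the corepressor were counted in the same way. HDAC3 was higher at 41 and lower at 4 of 103 member regions (all regions, 27.5% and 11.3%; medians 0.77 and 0.27), and NCoR was higher at 33 and lower at 9 of 112 (23.4% and 16.7%; medians 0.56 and 0.1). PGC1β was higher at 22 and lower at 2 of 74 (16.4% and 6.35%), and ERK1 at 14 and 1 of 55 (10.3% and 2.53%). Fosl2 was higher at 10 and lower at 0 of 63 (11.4% and 4.19%), with 16 regions at an unadjusted p under 0.05. PU.1 was higher at 9 and lower at 5 of 86 (4.53% and 21.7%), with a median near 0 for members (-0.03) against -0.41 for all, and with TMM it gave 16 higher and 2 lower (9.13% and 10.6% of all). In a second PGC1β experiment with DMSO in both groups, 26 of 105 member regions were higher and 0 lower (16.4% and 1.23%), with 40 at an unadjusted p under 0.05.

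The number of calls for these factors moved when 1 library was left out. Such a fit leaves 1 library in a group, so less power and a deviating library cannot be told apart. Called in either direction, HDAC3 had 45 member regions and 21 without either Veh library, and NCoR had 42, which became 15 without KLA replicate 1 and 18 without KLA replicate 2. PGC1β had 24 and then 10 and 11 without Veh replicate 1 and 2, and 26 and then 14 without DMSO Veh replicate 1 in the second experiment. ERK1 had 15, and 3 and 7 without KLA replicate 1 and 2. Fosl2 had 10, and 0 without either Veh library, 28 without KLA replicate 1 and 19 without KLA replicate 2.

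**Figure D1:**
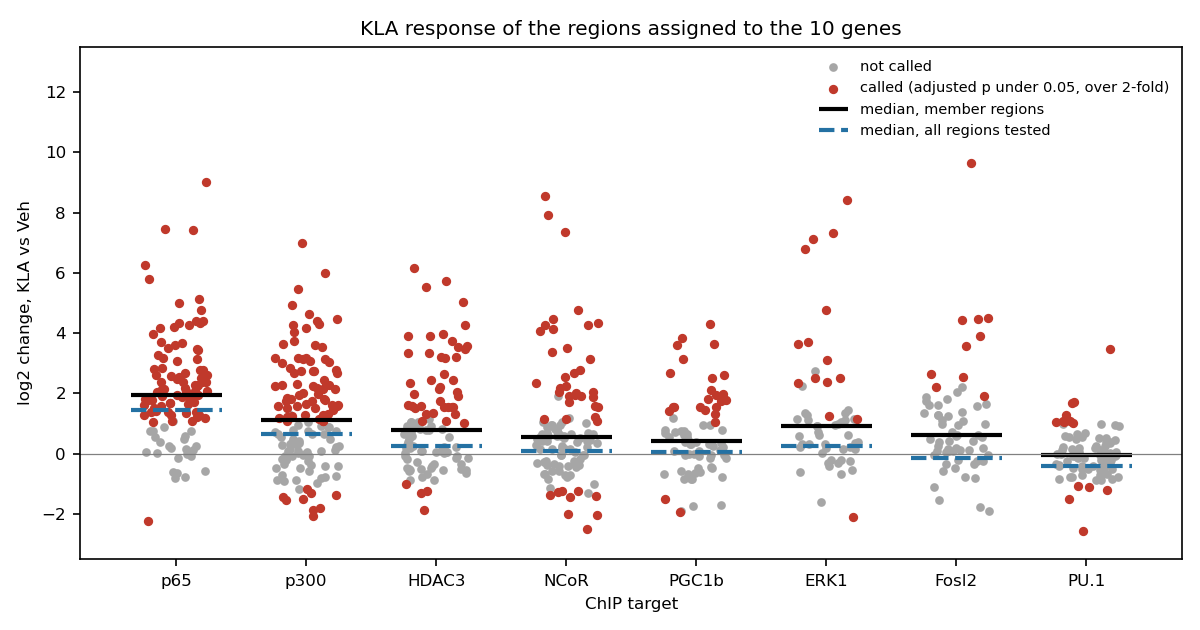
Log2 fold change of each member region with KLA against Veh (y axis) for the 8 factors profiled in WT BMDMs (x axis), with the medians of member regions and of all regions marked. The p65 points lie mostly above 0 with a member median of 1.95, and the PU.1 points centre near 0 (-0.03).

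The called gains varied among the genes, some of which had few regions. Of all p65 regions tested 57% were higher, near the shares at Pmaip1, Bcl2l1 and Bcl2. All 13 p65 regions of Birc3, 8 of 9 of Bcl2a1b, 14 of 16 of Cflar, 10 of 13 of Mcl1 and 22 of 31 of Bcl2l11 were called higher, against 4 of 6 each at Bcl2l1 and Bcl2, 5 of 9 at Pmaip1 and 0 of 2 at Bak1, while Bax had no p65 region. Scaled by TMM these counts became 7, 6, 10, 2, 11, 1, 0, 2 and 0, against 27.6% of all regions. The gains at Mcl1, Bcl2l1 and Bcl2 thus depended most on the scaling. For NCoR, 9 of 11 Birc3 regions and 5 of 7 Bcl2a1b regions were higher, against 1 of 15 at Mcl1 and 1 of 8 at Bcl2l1 (23.4% of all regions). For HDAC3 the counts were 10 of 12 at Birc3, 5 of 7 at Bcl2a1b, 7 of 14 at Cflar, 12 of 32 at Bcl2l11 and 1 of 13 at Mcl1 (27.5% of all regions).

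Birc3 encodes cIAP2, and its intergenic region 23.1 kb upstream gained all 8 factors profiled. At this region p65 held 2.63 and 1.86 tags per 10 M with Veh and 125 and 138 with KLA (log2 fold change 5.80 ± 0.44 SE, n = 2 per group, adjusted p = 2.35e-06). PU.1 held 7.24 and 16.2 with Veh and 129 and 124 with KLA (3.47 ± 0.22, adjusted p = 5.76e-32), which was the member region of lowest p for PU.1. The p65 and PU.1 calls were both kept in each of 4 fits that left out 1 library. p300 held 13.8 and 11.2 with Veh and 119 and 109 with KLA, HDAC3 held 3.64 and 5.53 against 66.2 and 121, and NCoR held 3.58 and 7.06 against 57.5 and 54.6. The changes of these 3 were 3.18 ± 0.28, 4.26 ± 0.52 and 3.37 ± 0.5 on the log2 scale, all called. ERK1 held 0 tags in both Veh libraries and 54.1 and 57.2 with KLA, at least 13.6-fold higher when 3 tags per library are taken as the floor. The regions of each factor are merged peaks of the compared groups. A region near 0 with Veh was thus listed through its KLA signal, and part of its gain follows from that listing. PGC1β went from 1.76 and 3.72 to 45.9 and 25.7, and Fosl2 from 5.64 and 9.44 to 48.9 and 181. The Fosl2 call was lost when either Veh library was left out (adjusted p = 0.495 and 0.39), and the share of tags in regions ran from 16.4% to 32.3% over the 4 Fosl2 libraries, whose part in the result was not tested.

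At the Birc3 start the same factors were already present with Veh and gained less. p65 held 91.1 and 94.2 tags with Veh and 457 and 516 with KLA (2.39 ± 0.19, called also with TMM at 1.16). p300 held 162 and 124 against 323 and 337 (1.21 ± 0.16, with TMM 0.69 and not called), and PU.1 104 and 105 against 215 and 233 (1.10 ± 0.11). NCoR held 141 and 181 against 266 and 303, a change of 0.82 ± 0.2 that stayed below the 2-fold limit, and HDAC3 held 186 and 152 against 261 and 458 (1.08 ± 0.38), a call that was lost without either Veh library (adjusted p = 0.463 and 0.606) and without KLA replicate 2 (0.64).

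Bcl2a1b encodes A1, a short-lived anti-apoptotic protein of blood cells. Its region 18.4 kb upstream held 5.25 and 0 p65 tags with Veh and 224 and 207 with KLA (6.27 ± 0.51, adjusted p = 3.27e-06). p300 held 0 and 3.29 against 80.3 and 69.2 (5.48 ± 0.55), NCoR 2.39 and 4.71 against 64 and 76.8 (4.27 ± 0.51), HDAC3 5.82 and 4.98 against 46.9 and 105 (3.75 ± 0.54), and PGC1β 1.18 and 5.58 against 66.6 and 39.5 (3.85 ± 0.56). All 5 were called. Fosl2 held 0 in both Veh libraries and 69.8 and 198 with KLA, at least 36.2-fold higher, though the call was lost without either Veh library (adjusted p = 0.0556 and 0.075). ERK1 held 14.2 and 0 against 35.7 and 53.1, which was not called (adjusted p = 0.0729), and PU.1 had no region there.

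At the Bcl2a1b promoter p65, p300 and PGC1β were called higher. p65 rose from 37.6 and 24.2 to 272 and 288 (3.17 ± 0.26) and p300 from 43.9 and 40.1 to 137 and 146 (1.75 ± 0.2). PGC1β held 11.2 and 23.7 against 105 and 22.9, groups that overlapped, and its call (1.78 ± 0.54, adjusted p = 0.0207) was lost without Veh replicate 1 or KLA replicate 1 (adjusted p = 0.151 and 0.578). In the DMSO experiment PGC1β held 29.2 and 43.7 against 69.1 and 96.8 (1.22 ± 0.42, adjusted p = 0.0465), a call lost with TMM (0.79) and without any of the 4 libraries (adjusted p of 0.0554 to 0.287). HDAC3 held 179 and 151 with Veh and 113 and 135 with KLA (-0.42 ± 0.36, not called), NCoR 123 and 157 against 98 and 119 (-0.36 ± 0.23, not called), and PU.1 108 and 111 against 154 and 131 (0.38 ± 0.12, below 2-fold). The promoter held HDAC3, NCoR and PU.1 tags in every Veh library, while the region 18.4 kb upstream held at most 5.82 HDAC3 tags there.

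**Figure D2:**
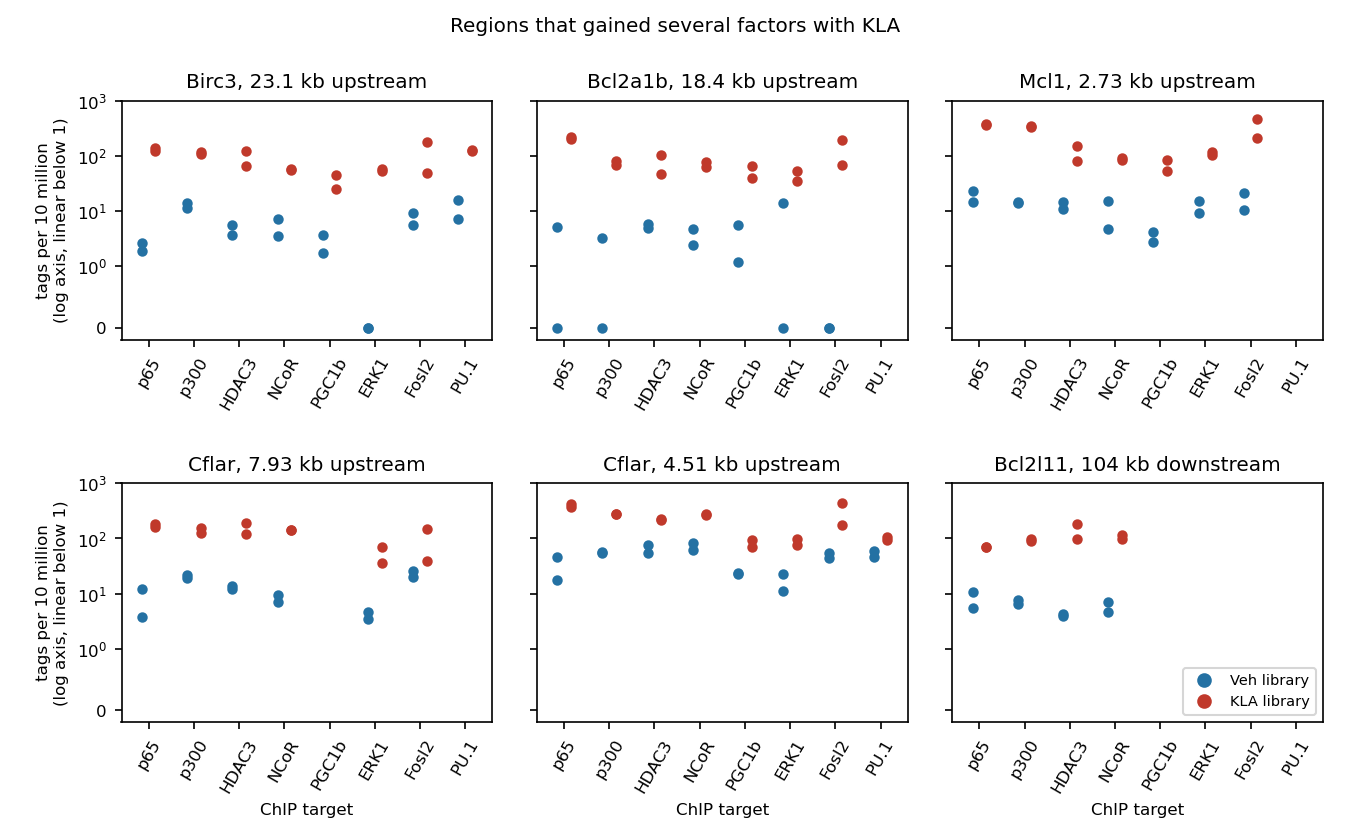
Tags per 10 M (y axis, symmetric log scale) in each library with Veh and with KLA for 8 factors (x axis) at 6 gained sites of Birc3, Bcl2a1b, Mcl1, Cflar and Bcl2l11, with 1 point per library and no point where a factor has no region, and titles that give the median distance over the factors. At the Birc3 region 23.1 kb upstream, p65 goes from 2.63 and 1.86 to 125 and 138.

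Mcl1 encodes MCL-1, a short-lived anti-apoptotic protein, and its largest gains lay upstream of a start that was already bound with Veh. At the region 2.71 kb upstream, p65 held 23.6 and 14.9 tags with Veh and 368 and 376 with KLA (4.26 ± 0.26, adjusted p = 8.89e-07), and p300 held 13.8 and 14.5 against 353 and 342 (4.62 ± 0.2, adjusted p = 8.95e-11). Fosl2 held 21.2 and 10.5 against 212 and 465, HDAC3 10.9 and 14.4 against 82.6 and 153 (3.17 ± 0.44), NCoR 15.5 and 4.71 against 85.9 and 93.4 (3.14 ± 0.45), PGC1β 4.11 and 2.79 against 85.2 and 53.2 (4.30 ± 0.48) and ERK1 9.44 and 15 against 102 and 116 (3.11 ± 0.45). Each of these 7 factors was called, although the Fosl2 call was lost without either Veh library (log2 fold changes 4.99 and 3.99). PU.1 had no region there. At the Mcl1 start p65 held 108 and 134 against 154 and 198 (0.54 ± 0.23, with TMM -0.69) and p300 137 and 147 against 118 and 123 (-0.24 ± 0.17), neither of them called. PU.1 held 236 and 212 at the start with Veh and 168 and 169 with KLA (-0.41 ± 0.1, below 2-fold). A further region about 8 kb upstream, which had a region in all 15 tables, held 280 and 310 NCoR tags with Veh and 320 and 259 with KLA (-0.03 ± 0.18). There p65 went from 134 and 158 to 496 and 497 (1.77 ± 0.19), a call lost with TMM (0.55). p300 was lower with KLA at 7 of 23 Mcl1 regions, the largest number among the members (12.9% of all regions). The region of lowest p was 5.8 kb downstream of the start, where p300 held 78.4 and 106 tags with Veh and 41.4 and 30.3 with KLA (-1.36 ± 0.26).

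Cflar encodes cFLIP, the decoy that keeps caspase 8 inactive, and its introns held a row of inducible regions. At the κB-bearing region 7.93 kb upstream of the internal start, p65 rose from 12.3 and 3.73 to 184 and 163 (4.41 ± 0.4), p300 from 19.4 and 21.7 to 124 and 153 (2.75 ± 0.24), NCoR from 9.56 and 7.06 to 140 and 145 (4.08 ± 0.35) and HDAC3 from 12.4 and 13.8 to 120 and 190 (3.53 ± 0.43). ERK1 rose from 4.72 and 3.47 to 68.8 and 35.4 (3.65 ± 0.71), a call lost without KLA replicate 1 (adjusted p = 0.131). NCoR had its lowest member p in this region (adjusted p = 4.64e-05). At the neighbouring region 4.5 kb upstream, more signal was present with Veh: p65 rose from 46.4 and 17.7 to 369 and 426 (3.62 ± 0.33), p300 from 57 and 54.5 to 279 and 273 (2.30 ± 0.17) and NCoR from 62.1 and 83.6 to 263 and 280 (1.90 ± 0.22). PU.1 held 46 and 59.1 there with Veh and 106 and 92.4 with KLA (0.93 ± 0.16), below 2-fold by library totals and called with TMM (1.34).

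The Cflar regions differed among themselves in which factors moved. At 3.3 kb upstream of the internal start, p65 rose from 41.1 and 66.2 to 260 and 293 (2.37 ± 0.26) and p300 from 93.4 and 95.9 to 200 and 206 (1.10 ± 0.16, with TMM 0.58 and not called). HDAC3 there held 151 and 138 with Veh and 131 and 162 with KLA (0.01 ± 0.36), and ERK1 81.8 and 79.8 against 111 and 78.9 (0.23 ± 0.34), neither called. At the intronic region 12.9 kb downstream of the internal start p65 held 49 and 82 against 67.5 and 103, PU.1 250 and 261 against 251 and 257, and p300 157 and 95.9 against 65.5 and 82.1, and none of them was called by library totals (with TMM, p300 was called lower at -1.29). At the main Cflar promoter p65 rose from 26.3 and 49.4 to 142 and 123 (1.81 ± 0.32, not called with TMM), and p300 held 52 and 49.3 against 90.5 and 104 (0.94 ± 0.22, below 2-fold).

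Bcl2l1 encodes BCL-XL, and 2 regions in its introns were listed in nearly every table, the one 22.3 kb downstream of the start in 15 and the one 18.1 kb downstream in 14 of 15. At 22.3 kb downstream of the start, p65 rose from 73.5 and 72.7 to 260 and 293 (1.92 ± 0.21, with TMM 0.69 and not called) and p300 from 154 and 122 to 339 and 322 (1.26 ± 0.15, with TMM 0.74 and not called). NCoR held 419 and 531 there with Veh and 320 and 284 with KLA (-0.66 ± 0.18, below 2-fold), HDAC3 436 and 369 against 250 and 381 (-0.36 ± 0.4), and PU.1 197 and 195 against 217 and 227. At 18.1 kb downstream NCoR held 174 and 266 against 113 and 108 (-1.0 ± 0.23), at the 2-fold limit and not called. At a further intronic region, 7.33 kb downstream, NCoR fell from 63.3 and 55.3 to 10.5 and 10.4 (log2 fold change -2.49 ± 0.41, adjusted p = 0.00098). The region 2.6 kb downstream gained most of the factors. There p65 rose from 15.8 and 13.1 to 184 and 193 (3.70 ± 0.29, with TMM 2.47), p300 from 15 and 17.1 to 143 and 145 (3.16 ± 0.24, with TMM 2.64), NCoR from 7.17 and 0 to 67.2 and 74 (4.27 ± 0.67) and HDAC3 from 16.7 and 21 to 87.3 and 125 (2.46 ± 0.42). These 4 were called under both scalings and in each fit that left out 1 library. Fosl2 went from 4.23 and 6.29 to 62.8 and 187 and ERK1 from 7.87 and 8.09 to 54.1 and 38.1, calls lost without either Veh library for Fosl2 (adjusted p = 0.365 and 0.316) and without KLA replicate 1 for ERK1 (0.148). At the Bcl2l1 start p65 held 46.4 and 44.7 against 28 and 63.6 (0.01 ± 0.42), which TMM turned into a lower call (-1.24).

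Bcl2 is the founding member of the family. Its called p65 regions had log2 fold changes of 1.20 to 2.24, and none was called with TMM. In the region in its single listed intron 18.3 to 18.4 kb from the start, which was listed in all 15 tables, p65 held 19.3 and 43.8 with Veh and 88.8 and 55.4 with KLA (1.20 ± 0.42). That call was lost with TMM (0.01) and without Veh replicate 1 (0.72), KLA replicate 1 (0.82) or KLA replicate 2 (1.5, adjusted p = 0.0792). PU.1 held 115 and 132 there against 123 and 120, and NCoR 137 and 181 against 89.9 and 89.2 (-0.83 ± 0.23, below 2-fold). In the same intron 35.9 kb downstream p300 rose from 3.13 and 6.57 to 30.7 and 38.9 (2.83 ± 0.5, with TMM 2.31), called in each fit that left out 1 library, while p65 held 16.6 and 13.1 against 13.4 and 20.5. PU.1 at the Bcl2 start fell from 29 and 29.9 to 9.16 and 18.5 (-1.08 ± 0.26), which was not called with TMM (-0.66) or without KLA replicate 1 (-0.67).

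Bcl2l11 encodes BIM, the BH3-only protein that contributes to the death of myeloid cells after cytokine withdrawal, and its start and its distal regions went in different directions. RefSeq gives Bcl2l11 an upstream and a downstream start, and the p65, p300 and PU.1 regions nearest a start lay at the upstream one. There p65 held 68.3 and 98.8 tags with Veh and 59.4 and 49.3 with KLA (-0.62 ± 0.31, not called), p300 120 and 124 against 81.3 and 66.5 (-0.72 ± 0.19, below 2-fold), and PU.1 90.5 and 77.2 against 39.3 and 38.2 (-1.12 ± 0.18, called). The PU.1 call was not kept with TMM (-0.70) or without Veh replicate 1 (-0.99). With TMM, p65 (-1.83) and p300 (-1.25) at the upstream start were called lower. The only p65 region of any member that was called lower lay 495 bp after the upstream Bcl2l11 start, with 15.8 and 14 tags against 0 and 6.16 (-2.25 ± 0.85), and it lost the call without either KLA library.

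Far from the start, Bcl2l11 regions gained. At 104 kb downstream HDAC3 rose from 4.36 and 3.87 to 96.7 and 184 (5.04 ± 0.5, adjusted p = 2.33e-21), the lowest p of any member region for HDAC3. NCoR rose there from 7.17 and 4.71 to 98.8 and 114 (4.14 ± 0.41), p300 from 7.52 and 6.57 to 99.2 and 91.9 (3.75 ± 0.32) and p65 from 10.5 and 5.59 to 69.5 and 70.5 (3.09 ± 0.44). The 4 factors were each called, with and without TMM, and in each fit that left out 1 library. At 102 kb downstream, where factors were present with Veh, p65 rose from 44.7 and 46.6 to 236 and 277 (2.49 ± 0.23) and HDAC3 from 129 and 118 to 256 and 357 (1.30 ± 0.37), the latter not called without either Veh library (adjusted p = 0.365 and 0.421). Regions 117 kb upstream, assigned to Bcl2l11 by distance although they lie in introns of the neighbouring gene Acoxl, gained p65 from 25.4 and 37.3 to 188 and 195 (2.61 ± 0.27) and p300 from 45.8 and 28.9 to 238 and 238 (2.67 ± 0.21).

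Losses were found at some Bcl2l11 regions as well. At 122 kb downstream NCoR fell from 60.9 and 95.3 to 29.2 and 29.7 (-1.40 ± 0.34), a call lost without either KLA library (adjusted p = 0.0872 and 0.0877), and PU.1 held 143 and 151 against 90.3 and 79.7 (-0.79 ± 0.13, below 2-fold). At 83.7 kb downstream PU.1 fell from 52.7 and 34.9 to 7.85 and 7.01 (-2.57 ± 0.28, adjusted p = 8.43e-15). This was the lowest p among member regions called lower for PU.1, and the call was kept with TMM (-2.16).

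Pmaip1 encodes NOXA, which neutralizes MCL-1. At its start p300 fell from 36.4 and 25 to 7.67 and 14.1 (-1.5 ± 0.45), a call lost without KLA replicate 1 (-1.12, adjusted p = 0.125), while p65 held 14 and 28 against 22.7 and 23.9 (0.16 ± 0.5). A region 19.7 kb downstream of Pmaip1 held 302 and 319 NCoR tags with Veh and 310 and 291 with KLA (-0.05 ± 0.17), and p65 there rose from 56.9 and 83 to 165 and 197 (1.37 ± 0.26, with TMM 0.15 and not called). At 17.3 kb downstream of Pmaip1 p65 rose from 14 and 5.59 to 68.1 and 69.1 (2.78 ± 0.46, with TMM 1.55), p300 from 24.4 and 9.2 to 73.7 and 79.4 (2.17 ± 0.35, with TMM 1.66) and NCoR from 10.8 and 34.1 to 86.7 and 102 (2.06 ± 0.43), each called under both scalings and in each fit that left out 1 library. HDAC3 there held 29.1 and 28.2 against 79.1 and 144 (1.93 ± 0.4), a call lost without either Veh library. In all, HDAC3 was called higher at 4 of 8 Pmaip1 regions (27.5% of all regions), and each of these calls was lost without either Veh library. Bax and Bak1 encode the pore-forming effectors and had 0 of 2 p65 regions called higher between them. Bax had no p65 or Fosl2 region, and at its start p300 held 76.5 and 63.1 against 67 and 53.5 (-0.21 ± 0.24). NCoR at the Bax start was called higher (23.9 and 16.5 against 38.1 and 51.2, 1.14 ± 0.42), but not without Veh replicate 2 (0.91) or either KLA library (adjusted p = 0.138 and 0.37). In a Bak1 intron 3.1 kb from the start NCoR fell from 70.5 and 95.3 to 23.5 and 40.1 (-1.37 ± 0.35, lost without KLA replicate 1 at -1.05), while PU.1 held 262 and 278 against 186 and 192 (-0.51 ± 0.09, below 2-fold). HDAC3 fell in the same intron from 66.9 and 77.4 to 34.6 and 24.6 (-1.24 ± 0.42), a call lost without either Veh library (adjusted p = 0.217 and 0.335).

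**Figure D3:**
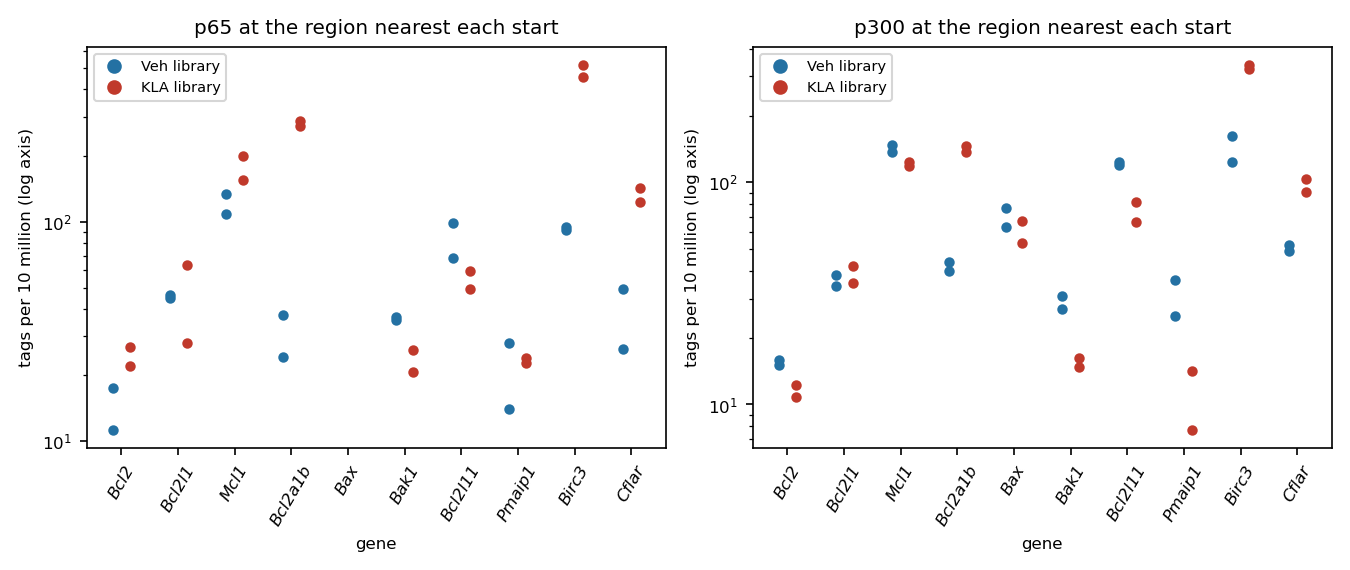
Tags per 10 M of p65 and p300 (y axis, log scale) in each library with Veh and with KLA at the region nearest the start of each member (x axis), with 1 point per library and no p65 region at Bax. Birc3 p65 rises from 91.1 and 94.2 to 457 and 516, and the upstream Bcl2l11 start holds fewer p300 tags with KLA (81.3 and 66.5) than with Veh (120 and 124).

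To ask how acetylation followed, H3K27ac was compared between KLA and Veh in 3 experiments. In the DMSO experiment 2 of 27 tested member regions were higher and 5 lower (6.73% and 28.1% of all regions), with medians of 0.04 for members and -0.42 for all, and with TMM 6 were higher and 2 lower (12.5% and 17.2% of all). In Pgc1b flox cells 1 of 26 was higher and 6 lower (5.22% and 25.6%), and with TMM 4 and 4 (9.84% and 13.8% of all). In the WT and NKO experiment 4 of 28 regions were higher and 4 lower in WT cells (6.49% and 3.72%), and the 8 calls became 4, 3 and 3 without WT Veh replicate 1, Veh replicate 2 and KLA replicate 2. Among the 4 higher was the Bcl2l1 intronic region 22.3 kb downstream (1.38 ± 0.3, adjusted p = 0.000703, with TMM 1.24 and called). Among the 4 lower was the Cflar region 12.1 kb downstream of the internal start (-1.11 ± 0.25, with TMM -1.25 and called). In Pgc1b flox cells the Bcl2l1 window 22.2 kb downstream was not called (0.41 ± 0.1). Bcl2a1b had no region in any of the H3K27ac tables.

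The 7 calls of the DMSO experiment lay at Cflar, Bcl2l11, Pmaip1 and Birc3. At the Cflar region 3.3 kb upstream of the internal start, H3K27ac rose from 297 and 293 with DMSO alone to 1160 and 985 with KLA (1.86 ± 0.19, adjusted p = 2.16e-20). In Pgc1b flox cells the same window rose from 332 and 353 to 930 and 870 (1.39 ± 0.07), and both calls held with TMM. At the Cflar region 12.9 kb downstream it fell from 427 and 386 to 135 and 141 (-1.56 ± 0.21) and, in Pgc1b flox cells, from 404 and 423 to 157 and 176 (-1.31 ± 0.1, with TMM -0.88 and not called). These 2 intronic regions of 1 gene thus moved in opposite directions in both experiments. At the downstream Bcl2l11 start (window chr2:128127014-128128014) H3K27ac fell from 98 and 103 to 53.1 and 36.2 (-1.15 ± 0.26), a call lost with TMM (-0.73) and without KLA replicate 2 (-0.92), and in Pgc1b flox cells from 162 and 155 to 50.2 and 45.3 (-1.73 ± 0.18), kept with TMM (-1.30). The window at the upstream start (chr2:128125357-128126357) held 112 and 113 against 69.3 and 57.2 with DMSO (-0.83 ± 0.24, below 2-fold) and fell from 151 and 138 to 49 and 45.3 in flox cells (-1.62 ± 0.19). At the Birc3 start it held 267 and 305 against 516 and 459 (0.77 ± 0.19), below 2-fold by library totals and called with TMM (1.20), and in Pgc1b flox cells 352 and 306 against 589 and 569 (0.81 ± 0.08, with TMM 1.24). Upstream of Pmaip1 at 21.8 kb it fell from 28.2 and 29.7 to 2.59 and 7.57 (-2.57 ± 0.46), kept with TMM (-2.15). At 24.6 kb upstream of Birc3 it was called higher (2.29 ± 0.89, adjusted p = 0.0217), a call lost without either DMSO Veh library or without DMSO KLA replicate 1 (adjusted p = 0.105, 0.0887 and 0.232).

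To ask what HDAC3 activity contributes, RGFP966 with KLA was compared with DMSO with KLA. Of 27 member regions 5 were higher and 1 lower (26.9% and 9.53% of all), with medians of -0.11 for members and 0.39 for all, and with TMM 2 were higher and 7 lower (16.1% and 18.9% of all). The region called lower was the Mcl1 start, with 881 and 696 tags with DMSO and KLA against 356 and 306 with RGFP966 and KLA (-1.25 ± 0.19, adjusted p = 7.79e-10), below the 590 and 572 of DMSO alone. This call held with TMM (-1.60) and in each of 4 fits without 1 library. The Cflar region 3.3 kb upstream held 631 and 539 with RGFP966, between the DMSO libraries with KLA and without (-0.87 ± 0.18, with TMM -1.22 and called). The Birc3 start held 329 and 253 with RGFP966 (-0.74 ± 0.19, with TMM -1.09 and called).

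Regions that had fallen with KLA included some that were higher with the inhibitor. The region 21.8 kb upstream of Pmaip1 held 34.9 and 40 with RGFP966 and KLA (2.94 ± 0.44, adjusted p = 3.91e-10, with TMM 2.61), close to or above the 28.2 and 29.7 of DMSO alone. The region 19.8 kb downstream of Pmaip1 held 173 and 148 with DMSO alone, 82.9 and 86.7 with KLA and 197 and 196 with RGFP966 and KLA (1.21 ± 0.22, with TMM 0.88 and not called). The Cflar region 12.9 kb downstream held 255 and 227 (0.81 ± 0.21, below 2-fold). At the downstream Bcl2l11 start the level with RGFP966 and KLA was 29.6 and 25.1 tags against 53.1 and 36.2 with DMSO and KLA (-0.72 ± 0.29, with TMM -1.06 and called). The window at the upstream Bcl2l11 start held 64.5 and 53.5 against 69.3 and 57.2 (-0.11 ± 0.25). Both comparisons share the DMSO libraries with KLA.

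**Figure D4:**
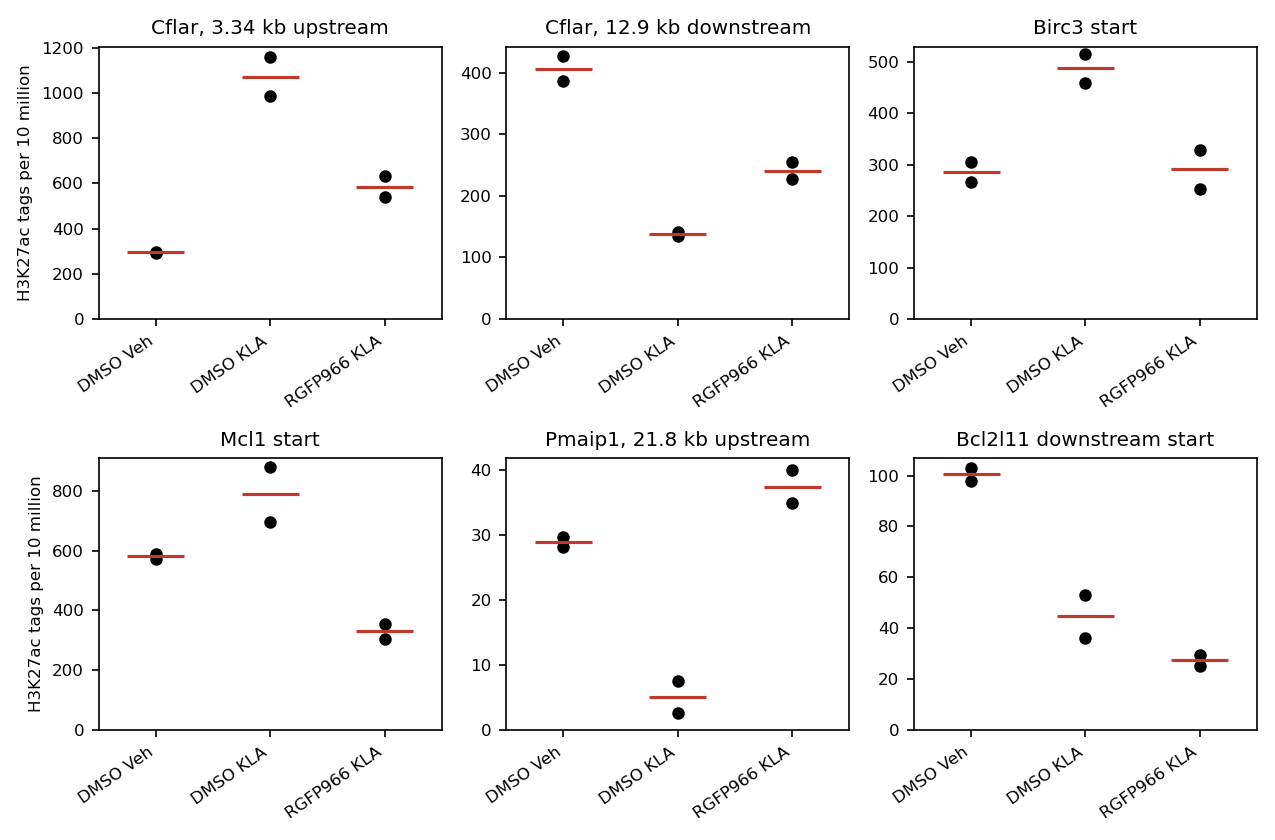
H3K27ac in tags per 10 M (y axis) at 6 member regions with DMSO, DMSO and KLA, and RGFP966 and KLA (x axis), with 1 point per library and a line at the mean (for Bcl2l11 the downstream start). At the Mcl1 start the RGFP966 libraries (356 and 306) lie below both DMSO groups, and at Pmaip1 they lie above the KLA libraries (34.9 and 40 against 2.59 and 7.57).

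Few member regions were called between the NCoR genotypes. In NKO cells KLA gave 0 of 28 member regions higher and 4 lower (2.75% and 7.96% of all), with 10 at an unadjusted p under 0.05, and with TMM 1 and 1 (4.29% and 5.32% of all). The 4 calls became 0 without NKO Veh replicate 1 and 2 without NKO Veh replicate 2 or NKO KLA replicate 1. NKO Veh against WT Veh gave 1 higher and 0 lower (0.973% and 0.027%), with 5 at an unadjusted p under 0.05. With KLA in both, edgeR and DESeq2 each called 0 member regions (0.4% and 0.389% of all by edgeR), with 2 at an unadjusted p under 0.05. The test of the difference between the 2 KLA responses called 0 higher and 1 lower (0.027% and 0.67%). That region was the Cflar intronic site 4.56 kb upstream of the internal start, with 9.46 and 9.68 tags in WT Veh, 29.6 and 30.3 in WT KLA, 46.5 and 30.2 in NKO Veh and 22.3 and 27.1 in NKO KLA. The WT libraries with Veh were the lowest of the 8, and the difference of responses was -2.27 ± 0.54 (adjusted p = 0.0276). It was not called with TMM (-1.92) and was kept in 2 of 8 fits that left out 1 library (adjusted p of 0.0692 to 0.189 in the other 6). The higher level in NKO Veh (1.98 ± 0.4, adjusted p = 0.00367) was lost without WT Veh replicate 1 or 2 or NKO Veh replicate 1 (adjusted p = 0.12, 0.174 and 0.137).

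In the Pgc1b experiment the genotypes were compared by the same test. Without KLA, 0 member regions of 26 were called by edgeR or DESeq2 (0.107% and 0.29% of all by edgeR), with 8 at an unadjusted p under 0.05 and 1 called without flox Veh replicate 1. With KLA, 0 were higher and 3 lower in flox Cre cells (0.702% and 6.81%), with TMM 0 and 0 (1.9% and 1.08% of all), and 7 were called without flox Cre KLA replicate 1. Within flox Cre cells KLA gave 1 region higher and 7 lower (4.18% and 32.5%), and with TMM 3 and 4 (10.8% and 14.3% of all). The difference between the KLA responses was called higher at 1 member region and lower at 3 (0.77% and 4.6%), and with TMM at 2 and 0 (1.4% and 2.31% of all).

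The regions whose responses differed were at Bcl2l11, Bcl2l1 and Birc3. At the downstream Bcl2l11 start H3K27ac held 162 and 155 in flox Veh, 50.2 and 45.3 in flox KLA, 107 and 95.5 in flox Cre Veh and 67.2 and 63.8 in flox Cre KLA, so the fall was smaller in flox Cre cells (difference 1.10 ± 0.26, adjusted p = 0.000401). This was called with TMM (1.29) and in 8 of 8 fits without 1 library. Between genotypes, flox Cre was lower with Veh (-0.65 ± 0.17, adjusted p = 0.00236, below 2-fold), and the difference with KLA was 0.45 ± 0.2 (adjusted p = 0.0596). The window at the upstream start held 151 and 138, 49 and 45.3, 105 and 108, and 43.3 and 54.1 in the same order, and its difference was not called (0.49 ± 0.28, adjusted p = 0.229). At the Bcl2l1 intronic region 18.1 kb downstream it held 335 and 375, 362 and 319, 383 and 359, and 175 and 158 in the same order (-1.11 ± 0.14, adjusted p = 6.24e-14), so only the flox Cre libraries with KLA stood apart. At 22.2 kb downstream it held 272 and 256, 339 and 362, 257 and 268, and 174 and 171 (-1.01 ± 0.15), under the 2-fold limit without replicate 2 of any of the 4 groups (-0.96 to -1.0). At the Birc3 intronic region 4.95 kb downstream it held 50.5 and 49.2, 87.6 and 96.1, 62.4 and 46.4, and 53.5 and 39.7 (-1.11 ± 0.31, adjusted p = 0.00401), lost without flox Cre Veh replicate 1 (-0.88) or flox Cre KLA replicate 2 (-0.91). With TMM, which removes a median difference of -0.18 over all regions, the latter 3 were -0.92, -0.83 and -0.93 and not called. The flox Cre libraries with KLA were also lowest in summed macrophage marker level (1350 to 1410, against 2270 in flox Cre Veh and more in flox cells). Their share of tags in listed regions was 22% and 22.4%. It was 30.9% and 31.6% in flox Cre Veh, 29.9% and 30.1% in flox KLA and 35.8% and 35.9% in flox Veh, and its part in these results was not tested.

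**Figure D5:**
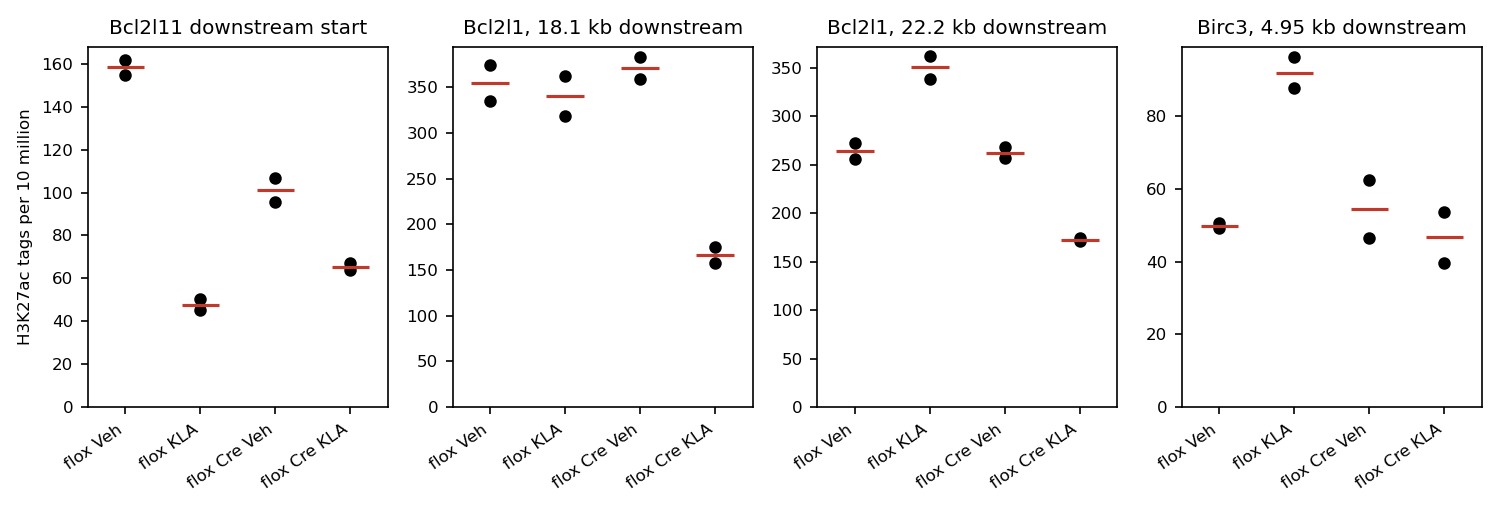
H3K27ac in tags per 10 M (y axis) at 4 member regions in Pgc1b flox and flox Cre cells with Veh and KLA (x axis), with 1 point per library and a line at the mean (for Bcl2l11 the downstream start). At the Bcl2l1 region 18.1 kb downstream the flox Cre libraries with KLA (175 and 158) lie below the other 6 (319 to 383).

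To ask whether ERK activity affects binding, KLA with ERKi was compared with KLA. For PGC1β, 1 of 105 member regions was higher and 0 lower (0.108% and 0.178% of all), with 13 at an unadjusted p under 0.05 and 3 called by DESeq2. The called region was 122 kb downstream of Bcl2l11, with 48.7 and 42.3 tags with DMSO, 5.92 and 38.7 with KLA and 119 and 131 with ERKi and KLA (2.40 ± 0.53, adjusted p = 0.0449), a call lost without DMSO KLA replicate 1 (1.69) or either ERKi library (adjusted p = 0.157 and 0.135). At the Birc3 region 23.1 kb upstream PGC1β held 2.44 and 0 with DMSO, 73 and 61 with KLA and 64.1 and 45.3 with ERKi, and at the Mcl1 region 2.74 kb upstream 13 and 24.8, 94.7 and 104, and 75.1 and 64.6. The KLA gain was called at both (5.32 ± 0.78 and 2.45 ± 0.47), and the ERKi differences were -0.29 ± 0.54 and -0.51 ± 0.43.

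For NCoR, 52 of 114 member regions were lower with ERKi and 1 higher (48.6% and 0.634% of all), with medians of -1.18 for members and -1.20 for all. With TMM, which moved the median of all regions to -0.04, 1 member region was lower and 4 higher (3.38% and 3.45% of all). Without KLA replicate 1 or 2 the 53 calls by library totals became 27 and 26. The NCoR libraries with ERKi carry other dates in their labels than those with KLA and have no DMSO control, so the inhibitor and the date cannot be told apart. The share of NCoR tags in listed regions was 33.3% and 34.2% with KLA and 15% and 15.8% with ERKi, and its part in the result was not tested. At the Birc3 start NCoR held 279 and 315 with KLA and 127 and 127 with ERKi (-1.23 ± 0.19, with TMM -0.06), and at the Cflar region 4.5 kb upstream 265 and 280 against 138 and 112 (-1.12 ± 0.21, with TMM 0.04, and -0.98 without ERKi replicate 2). The single member region called lower under both scalings lay 52.9 kb upstream of Bcl2l11, in an Acoxl intron, with 195 and 187 against 30.4 and 22.4 (-2.85 ± 0.29, with TMM -1.69). The region called higher lay 2.49 kb upstream of Bcl2l11, with 6.48 and 3.46 against 26.2 and 30.2 (2.50 ± 0.66, with TMM 3.66), and it lost the call without KLA replicate 2 (adjusted p = 0.0958).

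To ask how RANKL changed binding, day 4 was compared with day 0. For p300, 28 of 44 member regions were higher and 0 lower (62.2% and 0.248% of all), with medians of 1.57 and 1.84, and with TMM 0 were higher and 2 lower (8.8% and 3.83% of all). The share of p300 tags in listed regions was 3.08% and 3.16% at day 0 and 9.53% and 9.61% at day 4, and its part in the result was not tested. The 28 calls became 8 and 3 without day 4 replicate 1 and 2. The Cflar region 8.26 kb upstream of the internal start held 4.4 and 0 tags at day 0 and 48.9 and 49.9 at day 4 (4.00 ± 0.79, with TMM 2.40 and not called), and the Mcl1 region about 8 kb upstream 98.5 and 87.3 against 315 and 361 (1.85 ± 0.3, with TMM 0.23). The Mcl1 region 2.78 kb upstream, which gained p300 with KLA, held 14.1 and 12.8 against 52.8 and 62.4 (2.07 ± 0.53, with TMM 0.46), a call lost without either day 4 library (adjusted p = 0.089 and 0.168). The Birc3 region 23.1 kb upstream and the Bcl2a1b region 18.4 kb upstream had no p300 region in that table, and the Bax start held 41.3 and 66 against 35.2 and 36.3 (-0.55 ± 0.46, with TMM -2.14 and called lower).

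ERK1 changed at few member regions at day 4, with 1 of 37 higher and 0 lower (2.33% and 0.0267% of all) and 9 at an unadjusted p under 0.05. With TMM and with DESeq2 the count was 0. The called region lay 60.4 kb upstream of Bcl2l11 in Acoxl, with 5.17 and 0 tags at day 0 and 43.6 and 34.6 at day 4 (3.76 ± 0.89, adjusted p = 0.0379), and the call was lost without either day 4 library (adjusted p = 0.404 and 0.12). Without day 0 replicate 1 and 2 the count was 2 and 3. The day 4 library titled replicate 2 is described in its label as replicate 3 with another date. The labels of the other ERK1 libraries in this comparison name the genotype NCoRWT, and its label names none.

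A list of 38 other genes of the apoptosis pathway was read in the same fits. For p65, 168 of 230 of their regions were higher with KLA and 7 lower, spread over 27 genes with a gain, and the median was 2.26 against 1.46 for all regions, of which 57% were higher and 5.43% lower. Death receptors and their adaptors gave 98 of 115 (median 2.67), other BCL2 family genes 37 of 59 (2.20), caspases and apoptosome genes 22 of 34 (2.00), and other inhibitors of apoptosis and their ligands 11 of 22 (1.33), so the shares ran from 50% to 85.2%. For NCoR the list gave 90 higher and 16 lower of 223, and for HDAC3 101 and 15 of 225, beside 23.4% and 16.7% of all regions for NCoR and 27.5% and 11.3% for HDAC3. PU.1 at the other BCL2 family genes was lower at 13 of 39 regions and higher at 2 (median -0.58), against 21.7% and 4.53% of all regions (median -0.41). In these families the regions of lowest p included Tnfrsf1b, a TNF receptor, where p65 14.7 kb upstream rose from 7 and 2.8 to 344 and 389 (6.18 ± 0.34). Tnfaip3, the ubiquitin-editing brake on NFκB, gained p300 from 24.4 and 18.4 to 466 and 475 at 62.9 kb upstream (4.45 ± 0.19). With RGFP966, H3K27ac at the start of Ripk1, a kinase that links TNF receptors to death and survival, fell from 148 and 116 to 36.9 and 52.8 (-1.57 ± 0.24), and at Bid, a BH3-only gene cleaved by caspase 8, it rose 1.81 kb from the start from 64.1 and 37 to 147 and 128 (1.42 ± 0.24).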

How the data were processed

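ChIP-seq tags of 70 libraries in 15 tables (74 columns) were analysed; the 30 input libraries of the series were not analysed here. Per the study's methods, the authors aligned single-end reads to mm10 with Bowtie2 and called peaks with HOMER. They kept reproducible peaks, merged those of compared conditions and deposited raw tag counts per region. H3K27ac was counted over accessible regions or factor peaks. Regions tested here held at least 4 tags in 1 library, or 16 for H3K27ac. Input was not subtracted here. Cells for factor libraries were also crosslinked with DSG.

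Library totals were 4.3 to 21.5 M tags, read from the file headers, and values are tags per 10 M. Each table was fitted as a whole with edgeR 4.0.16 (quasi-likelihood, library totals, no block, R 4.3.3), with Benjamini-Hochberg adjustment over all its regions. Standard errors are the size of the log2 fold change divided by the square root of F. A group with no tags was given a floor of 3 tags per library, for counting error only. Region distances fitted the RefSeq starts of the same build (848 of 1009 within 60 bp, 84%). Replicates differed by more than sampling noise in all 37 groups checked (chi-square per degree of freedom 1.31 to 4.03). The fits were tested on counts simulated at a fixed dispersion, with balanced gains and losses and no shift in the share of tags in regions. This setting lacks the shifts seen in these libraries, so it cannot show how the calls behave under them.

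Regions named were, per member and table, the one nearest a start within 2000 bp, the strongest distal one, and in each comparison the called one of lowest p in each direction. Sites gained for several factors were chosen after their values were seen, and members, lists and tests were chosen with earlier results of these data known. Factor regions were peaks called in the same libraries that were then compared. Gains and fold bounds at regions with almost no Veh tags are therefore partly set by the peak listing. Alternatives were TMM, DESeq2 1.42.0, no fold minimum, no tag minimum, a replicate block, other joining distances and leaving out each library. The sequence of the Birc3 upstream region is not reported here.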

Additional observations from a re-analysis of the deposited data

Results flagged for a closer look

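The KLA response of H3K27ac differed between genotypes at 5 member regions, by the test of the difference itself in the same edgeR fits. In the Pgc1b experiment the response in flox Cre cells minus that in flox cells was 1.10 on the log2 scale at the downstream Bcl2l11 start (adjusted p = 0.000401) and 0.49 at the upstream one, which was not called. It was -1.11 at the Bcl2l1 intronic region 18.1 kb downstream, -1.01 at the Bcl2l1 region 22.2 kb downstream and -1.11 at the Birc3 intronic region 4.95 kb downstream. Under TMM the Bcl2l11 difference was called and the other 3 were not. In the NCoR experiment the response in NKO cells minus that in WT cells was -2.27 at the Cflar region 4.56 kb upstream of the internal start (adjusted p = 0.0276), a call lost without 6 of the 8 libraries.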

How the results depend on the processing

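Limits. With 2 libraries per group, counts of called regions moved with the scaling, the fold minimum and single libraries, and the cause was not tested. Depth limits the regions with few tags, where a group held 0 to 3.

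Counts of called member regions that moved by over 1.5 times under another scaling follow, as library totals and then TMM and DESeq2. ERK1 at day 4 went from 1 to 0 and 0, Fosl2 from 10 to 23 and 23, p65 from 81 to 50 and 48, p300 at day 4 from 28 to 2 and 1, NCoR with ERKi from 53 to 5 and 7, and PGC1β with DMSO from 26 to 17 and 17. For H3K27ac, flox Cre KLA against flox KLA went from 3 to 0 and 0, the Pgc1b difference of responses from 4 to 2 and 2, NKO KLA from 4 to 2 and 1, and the NKO difference of responses from 1 to 0 and 0. DESeq2 alone moved H3K27ac with DMSO from 7 to 11 and PGC1β with ERKi from 1 to 3. Without the fold minimum, PU.1 went from 14 to 52, and H3K27ac from 7 to 20 (flox), 8 to 19 (flox Cre), 0 to 6 (genotypes with Veh), 3 to 18 (genotypes with KLA), 4 to 13 (difference of responses), 7 to 18 (DMSO) and 6 to 20 (RGFP966).

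The correlation of deviations between libraries of the same replicate number was -0.0266 to 0.0255 over 31 pairs. This gave no sign of pairing but cannot exclude it, because the deviations of single regions also hold the noise of each library. With the replicate block the counts were 2 for ERK1 at day 4, 4 for Fosl2 and 0 for PGC1β with ERKi, and 398 of 411 single-region results kept their call.

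Leaving out 1 library gave 0 to 3 calls for ERK1 at day 4, 3 to 14 for ERK1 with KLA, 0 to 28 for Fosl2, 51 to 83 for p65, 21 to 58 for HDAC3, 15 to 55 for NCoR, 26 to 59 for NCoR with ERKi, 3 to 29 for p300 at day 4, 10 to 29 for PGC1β, 14 to 21 for PGC1β with DMSO and 0 to 1 for PGC1β with ERKi. For H3K27ac it gave 3 to 7 in WT and 0 to 3 in NKO cells, 0 to 1 for NKO Veh against WT Veh and for the NKO difference, 0 to 1 and 2 to 7 between Pgc1b genotypes with Veh and KLA, and 3 to 5 for the Pgc1b difference.

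Among results called before or after the change, the direction reversed in 5: Cflar 4.54 kb upstream for NCoR with ERKi (TMM 0.04, DESeq2 0.05), Bcl2l1 22.3 kb downstream (TMM -0.50, DESeq2 -0.40), Bcl2l11 76.7 kb downstream (TMM -0.09) and the Mcl1 start (TMM -0.23, DESeq2 -0.04) for p300 at day 4, and the Bcl2l1 start for p65 (TMM -1.24, DESeq2 -1.21). Of 411 single-region results, 347 were on the same side of the call with TMM, 343 with DESeq2 and 411 without a tag minimum, and some uncalled ones changed sign, such as p65 at the Mcl1 start (0.54, TMM -0.69). Joining regions within 200 or 1000 bp gave 207 or 121 sites in place of 169.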
